A study of Homo sapiens with 9 samples.

Results

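The genes described here are those of the mitochondrial protein import machinery and of MICOS (the mitochondrial contact site and cristae organizing system), chosen by name: every symbol in the count table that starts with TIMM, TOMM, CHCHD, MICOS or PMPC. The rule found 41 members among 14943 genes. Of these, 37 are single protein-coding genes, and the other 4 are the pseudogenes TOMM40P1, TOMM40P2 and TOMM40P4 and the readthrough transcript TIMM23B-AGAP6. SH-Sy5y, a human neuroblastoma cell line, was transfected for 48 h in 3 groups of 3 replicates, and polyadenylated RNA was sequenced. Control cells (Ctrl.) received 40 pmol of a negative control oligonucleotide and 0 pmol of mimic. The 10 nM group received 20 pmol of a miR-1229-3p mimic with 20 pmol of the control oligonucleotide, and the 20 nM group 40 pmol of mimic with 0 pmol of the control oligonucleotide. The amount of control oligonucleotide therefore fell as the amount of mimic rose, and the effects of the 2 cannot be told apart.

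Nearly all mitochondrial proteins are encoded in the nucleus and enter the organelle through translocases. The TOM complex forms the entry pore of the outer membrane, TIM23 and its motor carry precursors with a presequence into the matrix, and the small TIM proteins escort hydrophobic carriers to TIM22. The mitochondrial processing peptidase then removes the presequence. MICOS holds the cristae junctions of the inner membrane, and several small proteins with twin CX9C motifs (pairs of cysteines 9 residues apart) are folded in the intermembrane space. Neurons depend on these pathways for respiration and calcium buffering. A microRNA lowers messenger RNAs that pair with its seed, bases 2 to 8 from its 5′ end, mostly in their 3′ untranslated region (UTR).

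The mature microRNA is shown with its seed in capitals, because the seed defines which members carry a match. Its sequence is that of RefSeq, from the minus strand of chromosome 5 (GRCh38.p14, 179798278 to 179798300).
hsa-miR-1229-3p: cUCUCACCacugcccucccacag

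The longest annotated 3′ UTR of each gene was searched, on the transcribed strand, for the 8-mer GGTGAGAA, the 7-mers GGTGAGA (bases 2 to 8) and GTGAGAA (bases 2 to 7 and an A), and the 6-mer GTGAGA. The shorter motifs lie within the 8-mer, and each gene was given its strongest match. Of the 37 members with a 3′ UTR, 2 held a 7-mer or 8-mer (5.41%), against 3114 of 13777 genes in the whole table (22.6%). The members' UTRs were shorter, with a median of 1110 bases against 1552 over all genes, and the part of length in this share was not tested. A 6-mer was the strongest match in 7 further members, among them PMPCB, TIMM50, TIMM17A, TIMM8A, TOMM40 and TOMM40L. When any annotated 3′ UTR was allowed, CHCHD3 was added, which gave 3 of 37 members (8.11%) against 24.7% of all genes.

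Both matches are shown with the bases that precede them, since these are the only members with a 7-mer or 8-mer in the longest UTR. Capitals mark the bases of the match. In TOMM20, an import receptor, the match was an 8-mer at base 2176 of a UTR of 2723 bases (minus strand, chr1:235109881-235109910). In CHCHD1, a protein of the mitochondrial ribosome, it was a 7-mer at base 457 of a UTR of 879 bases (plus strand, chr10:73782926-73782955). Both positions refer to GRCh38.p14.
TOMM20: gctggccaaatggtgctcagcaGGTGAGAA
CHCHD1: atcttcatgtgctttagggcattGTGAGAA

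Each library held 17.4 to 28.2 M estimated counts in total, of which the members took between 0.281% and 0.312%. Noradrenergic markers of neuroblastoma were present (9 of 9 in the table, summing to 5340 to 5570 CPM (counts relative to the TMM-scaled library total) in Ctrl., 5670 to 5910 at 10 nM and 5500 to 6360 at 20 nM), although TH was below 1 CPM in the libraries. Markers of mesenchymal neuroblastoma cells summed to 261 to 309, 247 to 307 and 272 to 313 CPM (7 of 8 in the table, PRRX1 not among them). The library of 20 nM replicate 3 stood apart. Its score on the leading principal component of all genes (30.4% of variance) was 47.4, with scores from -17.1 to 7.72 in the remaining 8. In this library the median member was 0.32 higher than the control mean on the log2 CPM scale, against at most 0.145 in any other, while the median over all genes was 0.006. It had the highest level of the 9 libraries for 27 members (30.8% of all genes did so) and the lowest for 8 (28.9% of all genes). The called members and some other values are therefore given with and without it. In bulk RNA, a change in the number of cells of a type and a change in RNA per cell cannot be told apart.

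Members differed widely in level. Per kilobase of the canonical transcript, CHCHD2 was highest in Ctrl. at 435 CPM per kilobase, followed by TOMM20 at 172 and TOMM6 at 157. The next, TOMM5, stood at 76.8, close to TOMM40 (74.8), CHCHD3 (73.5), TIMM13 (72.8) and TOMM7 (72.8). At the lower end were TIMM22 at 6.67, TIMM21 at 7.86 and TIMM23B at 8.89, and below these CHCHD7 (2.06), the readthrough TIMM23B-AGAP6 (3.32) and the pseudogenes (1.56 to 2.06). Replicates of a group (n = 3) varied little: the SD of a member's log2 CPM had a median of 0.0621 in Ctrl. and 0.0728 at 10 nM, against 0.0851 and 0.0921 over all genes. At 20 nM it was 0.197 for members and 0.175 over all genes, with the widest spread in MICOS13 (0.464).

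**Figure D1:**
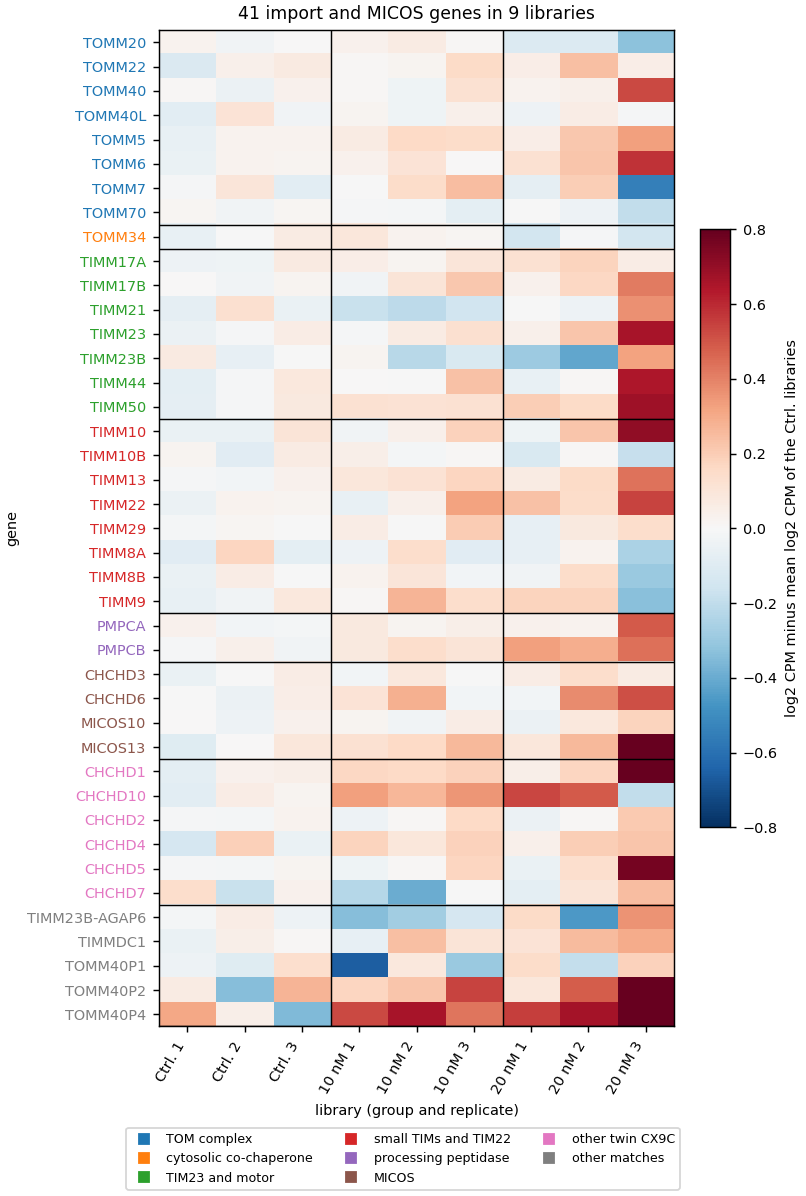
Each row is a member, grouped by role, and each column a library; colour gives log2 CPM minus the mean of the 3 Ctrl. libraries, with the scale ending at -0.8 and 0.8. Most rows are darkest in the last column, 20 nM replicate 3, which was highest of 9 for 27 members and lowest for 8.

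The first comparison asked which members changed at the lower concentration. At 10 nM, 1 of 41 members passed the threshold, an adjusted p under 0.05 in edgeR's quasi-likelihood test after Benjamini-Hochberg adjustment (called edgeR adjusted p from here on; the fit held 1 surrogate variable). Of all genes 0.649% passed, 0.221% higher and 0.428% lower. This was CHCHD10, a twin CX9C protein of the intermembrane space, and it was higher. An unadjusted p under 0.05 was reached by 4 of 41 members and by 2084 of 14943 genes. At 20 nM against Ctrl., 2 members passed, CHCHD10 and PMPCB, both higher, against 13.9% of all genes (7.8% called higher, 6.08% called lower). Before adjustment 8 of 41 members had a p under 0.05, as did 4187 of 14943 genes. From 10 to 20 nM, 1 member passed, PMPCB, which was higher, against 2.79% of all genes (1.91% called higher, 0.883% called lower). Before adjustment 5 of 41 members had a p under 0.05, as did 2220 of 14943 genes. The share of members called at 20 nM was thus lower than over the whole table, a difference that was not tested. The 10 nM and 20 nM comparisons share their control libraries. Whether replicates came from separate cultures is not stated. The p-values measure the spread between these samples that is left once the surrogate variable is fitted, and that spread may be technical.

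A second model used the amount of mimic as a numeric term (0, 10 and 20 nM, 2 surrogate variables), so that its fold changes are per 20 nM. In this dose trend 7 of 41 members passed, a share close to the 17.5% of all genes. An unadjusted p under 0.05 was reached by 15 members and by 4607 of 14943 genes. PMPCB, CHCHD10, TIMM50, MICOS13, TOMM6 and TIMM23 were higher (9.84% of all genes were called higher) and TOMM20 was lower (7.69% of all genes were called lower). The median log2 fold change of the 41 members was 0.092 in the dose trend, 0.057 at 10 nM, 0.067 at 20 nM and 0.010 from 10 to 20 nM, against -0.001, 0.000, 0.000 and 0.003 over all genes. Positive fold changes were found for 30 members (73.2%) in the dose trend, against 49.9% of all genes. Scaling of the libraries keeps the values over all genes centred near 0, and the members' excess was not tested. Of the import partners described below, 61.8% were positive. Single members differed by small amounts: among the 37 single genes the log2 fold changes of the dose trend ran from -0.23 to 0.42. With no surrogate variables PMPCB was the only member called in the dose trend (8.27% of all genes were called), and with the mimic as present or absent CHCHD10 was the only one (1.11%).

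**Figure D2:**
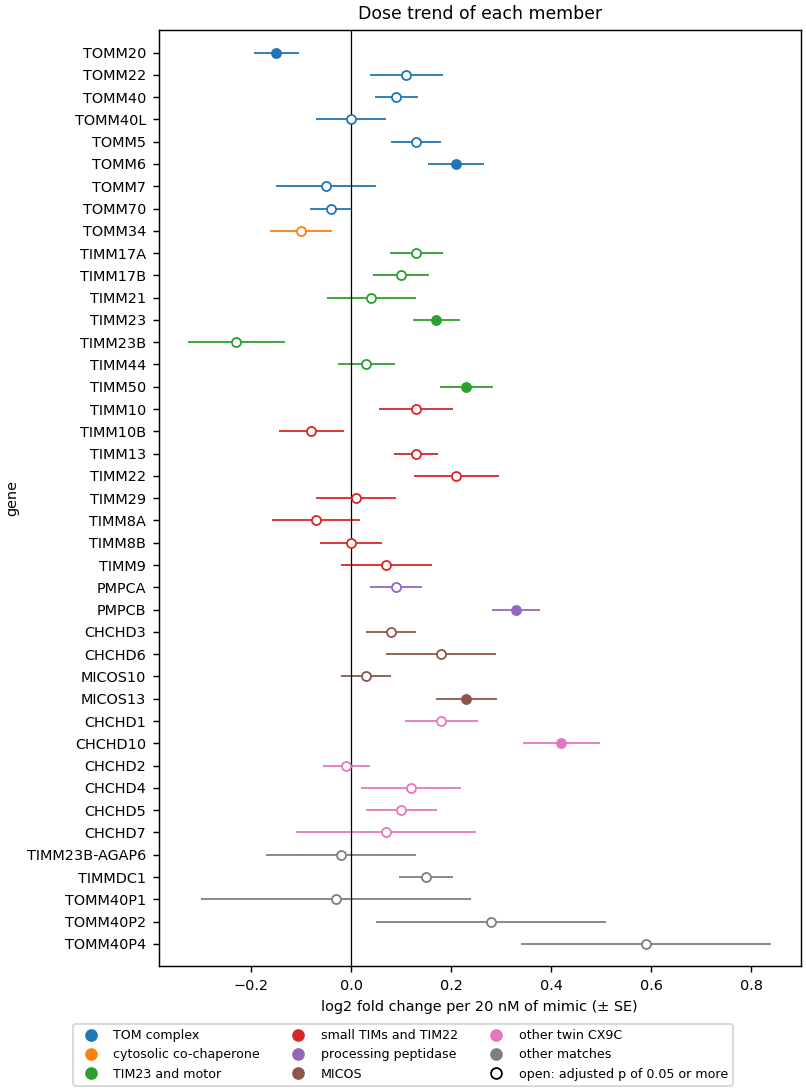
Points give each member's log2 fold change per 20 nM of mimic and bars its SE (edgeR, 9 libraries); filled points passed an adjusted p of 0.05. The 6 filled points to the right of 0 are TOMM6, TIMM23, TIMM50, PMPCB, MICOS13 and CHCHD10, and TOMM20 is the filled point to the left.

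Levels could also be compared without the model. At 10 nM, all libraries lay above all Ctrl. libraries for 8 members (10.1% of all genes did so) and below them for 2, TIMM21 and TIMM23B-AGAP6 (9.9% of all genes). The 8 were TOMM5, TIMM50, TIMM13, PMPCB, MICOS13, CHCHD1, CHCHD10 and TOMM40P4. At 20 nM the groups were separate for 11 higher members (15.2% of all genes) and 1 lower member, TOMM20 (13.7% of all genes). The higher ones were TOMM5, TOMM6, TIMM17B, TIMM50, TIMM13, TIMM22, PMPCB, CHCHD3, CHCHD1, TIMMDC1 and TOMM40P4.

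Of the 8 members of the TOM complex, TOMM6 rose and TOMM20 fell in the dose trend. TOMM20 (chromosome 1, 235109341 to 235128837, minus strand), the receptor that first binds presequences, stood at 574.5, 553.6 and 565.8 CPM in Ctrl. replicates 1 to 3. It was at 577.4, 590.0 and 567.1 CPM at 10 nM and at 522.6, 523.1 and 449.1 CPM at 20 nM. The 20 nM libraries were all below the others, and the 10 nM libraries overlapped Ctrl. Per 20 nM the change was -0.15 on the log2 scale (SE 0.045, edgeR adjusted p = 0.0386). The first step, to 10 nM, was 0.06 (SE 0.038, edgeR adjusted p = 0.539) and the next, from 10 to 20 nM, -0.16 (SE 0.041, edgeR adjusted p = 0.0699). Of the 7 members called in the dose trend, TOMM20 was the one with a 7-mer or 8-mer match and the one that fell. CHCHD1, the other member with such a match, was not called (0.18), and a link between match and direction was not tested. The call for TOMM20 was lost without Ctrl. replicate 1 (-0.14, edgeR adjusted p = 0.154), Ctrl. replicate 3 (-0.16, 0.054), 20 nM replicate 2 (-0.14, 0.129) or 20 nM replicate 3 (-0.11, 0.0986). It was also lost with 1 surrogate variable (-0.12, edgeR adjusted p = 0.138) and with the replicate number as a block (-0.18, 0.112), and with the mimic as present or absent the value was 0.01 (edgeR adjusted p = 0.897).

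TOMM6 (chromosome 6, 41787662 to 41789898, plus strand), a small subunit that stabilizes the pore, was at 85.56, 90.28 and 90.12 CPM in Ctrl. It was at 90.81, 95.65 and 88.64 CPM at 10 nM and at 96.25, 103.3 and 132.4 CPM at 20 nM. Every 20 nM library was above every other library, and replicate 3 was far above replicates 1 and 2. Its log2 fold change was 0.21 (SE 0.056, edgeR adjusted p = 0.020) and 0.16 without 20 nM replicate 3 (SE 0.052, edgeR adjusted p = 0.0425). It missed the threshold without Ctrl. replicate 3 (edgeR adjusted p = 0.0561) and without 20 nM replicate 2 (0.112). TOMM6 overlaps USP49 on the other strand and another gene on its own strand, and whether the counting used strand is not stated.

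TOMM40, the channel itself, stood at 132.9, 128.3 and 135.7 CPM in Ctrl., 132.9, 129.2 and 144.1 CPM at 10 nM and 134.6, 136.2 and 190.6 CPM at 20 nM, so that replicate 3 alone was clearly higher. Its log2 fold change was 0.09 (SE 0.043, edgeR adjusted p = 0.173) and 0.02 without that library. TOMM40L, its paralogue, stayed between 31.14 and 35.68 CPM in all 9 libraries (log2 fold change 0.00, SE 0.070, edgeR adjusted p = 0.979). The receptors and small subunits TOMM70 (-0.04), TOMM22 (0.11), TOMM5 (0.13) and TOMM7 (-0.05) did not pass either, but TOMM5 passed with the replicate number as a block (0.20, edgeR adjusted p = 0.0417). TOMM34, a cytosolic co-chaperone of import, was at 58.63, 60.93 and 63.9 CPM in Ctrl., 65.03, 62.21 and 61.78 CPM at 10 nM and 55.16, 60.6 and 55.18 CPM at 20 nM (log2 fold change -0.10, SE 0.062, edgeR adjusted p = 0.303).

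Among the 7 members of TIM23 and its motor, TIMM50 and TIMM23 rose in the dose trend and 4 had an unadjusted p under 0.05 (4607 of 14943 genes did). TIMM50 (chromosome 19, 39480412 to 39493785, plus strand), the receptor that takes presequences from TOM to TIM23, was at 68.31, 71.31 and 75.82 CPM in Ctrl. The 10 nM libraries were at 77.94, 77.64 and 78.12 CPM and the 20 nM libraries at 82.23, 79.82 and 114.7 CPM. The 3 groups did not overlap, and each step was upward. The fitted change was 0.23 on the log2 scale (SE 0.053, edgeR adjusted p = 0.00957), and 0.17 without 20 nM replicate 3 (SE 0.053, edgeR adjusted p = 0.0399). At 20 nM against Ctrl. it was 0.15 (SE 0.057, edgeR adjusted p = 0.107) and passed with the replicate number as a block (0.35, edgeR adjusted p = 0.0445) and without 20 nM replicate 3 (0.17, 0.0367).

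TIMM23 (chromosome 10, 45972489 to 46003742, plus strand), the channel of the inner membrane, was at 69.59, 71.36 and 74.85 CPM in Ctrl., 71.38, 75.16 and 78.52 CPM at 10 nM and 74.03, 83.78 and 113.5 CPM at 20 nM. The groups overlapped, and replicate 3 again stood out. The log2 fold change was 0.17 (SE 0.047, edgeR adjusted p = 0.0239), and 0.11 without 20 nM replicate 3 (SE 0.056, edgeR adjusted p = 0.207). The call was also lost without Ctrl. replicate 1 (0.0852), Ctrl. replicate 3 (0.0544) or 20 nM replicate 2 (edgeR adjusted p = 0.146), with libraries scaled by their totals (0.0531), and in DESeq2 (0.16, DESeq2 adjusted p = 0.0578).

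TIMM23B, a near-identical copy of TIMM23, lay below the control of equal replicate number in 5 of 6 mimic libraries. It was at 23.29, 21.14 and 22.08 CPM in Ctrl., 22.45, 19.03 and 20.34 CPM at 10 nM and 18.12, 16.6 and 27.67 CPM at 20 nM. Replicates 1 and 2 at 20 nM were the lowest of the 9 libraries and replicate 3 the highest. For TIMM23B the log2 fold change was -0.23 (SE 0.097, edgeR adjusted p = 0.124), and without 20 nM replicate 3 it was -0.32 (SE 0.090, edgeR adjusted p = 0.0217), past the threshold. Reads of the pair can be assigned to either copy, and TIMM23B overlaps TIMM23B-AGAP6 and PARG, so both values are uncertain. The summed level of TIMM23 and TIMM23B, which does not depend on how reads were split between them, was 92.88, 92.5 and 96.93 CPM in Ctrl., 93.83, 94.19 and 98.86 CPM at 10 nM and 92.15, 100.4 and 141.2 CPM at 20 nM. In the sum, 20 nM replicate 3 alone was far from the controls.

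TIMM17A, a core partner of the TIM23 channel, was at 68.7, 68.93 and 74.22 CPM in Ctrl., 73.11, 71.56 and 75.61 CPM at 10 nM and 76.79, 79.95 and 73.5 CPM at 20 nM (log2 fold change 0.13, SE 0.053, edgeR adjusted p = 0.0981). Without 20 nM replicate 3 it passed at 20 nM against Ctrl. (0.15, SE 0.047, edgeR adjusted p = 0.0489). Its paralogue TIMM17B was at 44.85, 43.79 and 45.47 CPM in Ctrl., 43.92, 47.97 and 51.89 CPM at 10 nM and 45.82, 50.1 and 59.56 CPM at 20 nM (0.10, SE 0.056, edgeR adjusted p = 0.235). TIMM44, which tethers the motor, had a log2 fold change of 0.03 and TIMM21 of 0.04, and neither passed. TIMM44 was at 84.4 CPM in 20 nM replicate 3 and between 51.14 and 63.43 CPM in the other 8 libraries.

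Of the 8 small TIM proteins and subunits of TIM22, 0 passed in the dose trend by edgeR or DESeq2 with surrogate variables, and 2 had an unadjusted p under 0.05 in edgeR. With the replicate number as a block TIMM13 (0.22, edgeR adjusted p = 0.0458) and TIMM22 (0.31, 0.0337) passed. TIMM13 was the most abundant. It was at 120.3, 119.3 and 123.9 CPM in Ctrl., 128.8, 131.1 and 136.5 CPM at 10 nM and 126.8, 134.8 and 163.7 CPM at 20 nM, so that all mimic libraries were above all controls. Its log2 fold change was 0.13 (SE 0.044, edgeR adjusted p = 0.0564), with the adjusted value just above the threshold, and 0.09 without 20 nM replicate 3 (SE 0.044, edgeR adjusted p = 0.160). TIMM22, the channel for carriers, was at 20.57 to 21.62 CPM in Ctrl. and 23.48 to 30.83 CPM at 20 nM (0.21, SE 0.085, edgeR adjusted p = 0.106). The block also gave a call for TIMM22 at 20 nM against Ctrl. (0.31, edgeR adjusted p = 0.0494).

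TIMM10, the partner of TIMM9 in the chaperone ring, was at 19.26, 19.19 and 21.45 CPM in Ctrl., 19.56, 20.55 and 22.63 CPM at 10 nM and 19.5, 23.27 and 32.62 CPM at 20 nM (log2 fold change 0.13, SE 0.074, and 0.06 without 20 nM replicate 3). TIMM10B was at 50.57, 46.65 and 52.1 CPM, then 51.46, 49.09 and 50 CPM, and then 45.7, 50.06 and 43.68 CPM in the same order of groups (-0.08, SE 0.065). In 20 nM replicate 3 the former was the highest of its 9 values and the latter the lowest. TIMM8A, mutated in deafness-dystonia syndrome, was at 15.97, 19.14 and 16.09 CPM in Ctrl., 16.55, 18.75 and 16 CPM at 10 nM and 16.28, 17.37 and 14.26 CPM at 20 nM (-0.07, SE 0.088). TIMM8B was at 48.06, 51.95 and 49.9 CPM, 50.84, 53.32 and 49.26 CPM, and 49.0, 55.18 and 40.68 CPM (0.00, SE 0.062). TIMM9 (0.07) and TIMM29 (0.01) did not pass either.

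The mitochondrial processing peptidase has 2 subunits, and one of them rose. PMPCB (chromosome 7, 103297407 to 103331818, plus strand), the catalytic subunit, was at 97.75, 101.2 and 96.75 CPM in Ctrl. It was at 104.0, 108.8 and 105.8 CPM at 10 nM and at 123.9, 120.7 and 133.5 CPM at 20 nM. The 3 groups were separate and stepped upward. PMPCB had the smallest adjusted p of all members in the dose trend: the log2 fold change was 0.33 (SE 0.048, edgeR adjusted p = 0.000468), and 0.31 without 20 nM replicate 3 (SE 0.046, edgeR adjusted p = 0.000451). At 20 nM against Ctrl. it was 0.31 (SE 0.047, edgeR adjusted p = 0.00109), and 0.35 with the replicate number as a block (edgeR adjusted p = 0.00694). The step from 10 to 20 nM was 0.21 (SE 0.045, edgeR adjusted p = 0.0243) and missed the threshold without 10 nM replicate 1 (0.0731), 10 nM replicate 3 (0.11), 20 nM replicate 1 (0.187) or 20 nM replicate 2 (edgeR adjusted p = 0.0662). With the replicate number as a block this step also missed it (0.25, edgeR adjusted p = 0.108). PMPCB overlaps PSMC2 on its own strand and DNAJC2 on the other.

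PMPCA, the subunit that recognizes the substrate, was at 111.4, 107.2 and 107.5 CPM in Ctrl., 114.8, 110.2 and 112.4 CPM at 10 nM and 111.2, 110.6 and 152.7 CPM at 20 nM. Apart from 20 nM replicate 3, its libraries were nearly level. For PMPCA the log2 fold change was 0.09 (SE 0.052, edgeR adjusted p = 0.257) and 0.03 without that library (SE 0.045, edgeR adjusted p = 0.681).

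Of the 4 MICOS members, 1 passed in the dose trend. MICOS13 (chromosome 19, 5678421 to 5680516, minus strand), which links the MICOS subcomplexes, was at 29.62, 31.73 and 33.78 CPM in Ctrl. It was at 34.42, 35.3 and 37.95 CPM at 10 nM and at 33.73, 37.97 and 61.91 CPM at 20 nM. The 10 nM libraries lay above the controls, and 20 nM replicate 3 lay far above all. The log2 fold change was 0.23 (SE 0.061, edgeR adjusted p = 0.0164), and 0.15 without that library (SE 0.068, edgeR adjusted p = 0.155). The call was also lost without Ctrl. replicate 1 (edgeR adjusted p = 0.0662) or 20 nM replicate 2 (0.0533). RPL36, an abundant ribosomal protein gene, overlaps the span of MICOS13 on the other strand, and overlap of exons was not examined.

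CHCHD3 (MIC19), which joins MICOS to the outer membrane, was at 113.6, 117.6 and 122.6 CPM in Ctrl., 116.0, 124.9 and 117.7 CPM at 10 nM and 122.6, 130.1 and 123.1 CPM at 20 nM (log2 fold change 0.08, SE 0.050, edgeR adjusted p = 0.322). CHCHD6 (MIC25) was at 14.21, 13.79 and 14.75 CPM, 15.35, 17.34 and 14 CPM, and 14.06, 18.54 and 20.38 CPM in the same order (0.18, SE 0.110, edgeR adjusted p = 0.270). MICOS10 stayed between 67.13 and 78.52 CPM (0.03).

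Among the other 6 twin CX9C members, CHCHD10 rose and had the largest log2 fold change of the 37 single genes. CHCHD10 (chromosome 22, 23765834 to 23767972, minus strand, located by symbol), mutated in forms of motor neuron disease and myopathy, was at 36.19, 40.0 and 38.91 CPM in Ctrl. It was at 48.22, 46.0 and 48.98 CPM at 10 nM and at 55.49, 53.89 and 33.47 CPM at 20 nM. Of the 6 mimic libraries 5 were above every control, and 20 nM replicate 3 was the lowest of all 9. In the fit by group CHCHD10 had a log2 fold change of 0.39 for 10 nM (SE 0.070, edgeR adjusted p = 0.0281) and 0.54 for 20 nM (SE 0.077, edgeR adjusted p = 0.000691). The dose trend gave 0.42 (SE 0.077, edgeR adjusted p = 0.00209). Without 20 nM replicate 3 these 3 values were 0.31 (edgeR adjusted p = 0.0203), 0.51 (0.000146) and 0.51 (9.63e-05).

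The calls for CHCHD10 with all 9 libraries depended on the surrogate variables, the model terms for variation that the groups leave unexplained. Under a replicate block in their place the log2 fold changes for 10 and 20 nM were 0.31 (edgeR adjusted p = 0.569) and 0.29 (0.213), neither past the threshold, and in the dose trend it was 0.29 (edgeR adjusted p = 0.21). With no such variable they were 0.32 (edgeR adjusted p = 0.891) and 0.31 (0.23). At 10 nM the call was also lost without Ctrl. replicate 1 (edgeR adjusted p = 0.0919), 10 nM replicate 2 (0.0833), 10 nM replicate 3 (0.0766) or 20 nM replicate 1 (0.061).

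CHCHD2, the paralogue of CHCHD10, was at 343.9, 342.0 and 353.1 CPM in Ctrl., 336.4, 349.0 and 387.1 CPM at 10 nM and 335.4, 348.4 and 400.5 CPM at 20 nM. Its groups overlapped and the log2 fold change was -0.01 (SE 0.047, edgeR adjusted p = 0.875). CHCHD1, the other member with a 7-mer, was at 25.45 to 27.74 CPM in Ctrl., 30.06 to 30.57 CPM at 10 nM and 27.79, 30.32 and 49.19 CPM at 20 nM. All 6 mimic libraries of CHCHD1 were thus above the controls (log2 fold change 0.18, SE 0.073, edgeR adjusted p = 0.111, and 0.10 without 20 nM replicate 3). CHCHD4 (0.12), the import receptor of the intermembrane space, CHCHD5 (0.10) and CHCHD7 (0.07) did not pass. CHCHD5 was at 32.86 CPM in 20 nM replicate 3 and at 18.66 to 21.83 CPM elsewhere, and its log2 fold change was 0.01 without that library.

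Of the other 5 symbols that match the rule, 0 passed in the dose trend by edgeR or DESeq2 with surrogate variables, and 2 had an unadjusted p under 0.05 in edgeR. TIMMDC1, an assembly factor of respiratory complex I and not an import protein, was at 105.9, 113.5 and 110.9 CPM in Ctrl., 105.3, 130.3 and 118.0 CPM at 10 nM and 118.7, 131.2 and 135.1 CPM at 20 nM. Its fitted log2 fold change was 0.15 (SE 0.054, edgeR adjusted p = 0.0779). With the replicate number as a block it passed in the dose trend (0.22, edgeR adjusted p = 0.0282) and at 20 nM against Ctrl. (0.22, 0.0433). The TOMM40 pseudogenes lay between 1.229 and 4.254 CPM, can share reads with TOMM40 and were not interpreted singly.

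**Figure D3:**
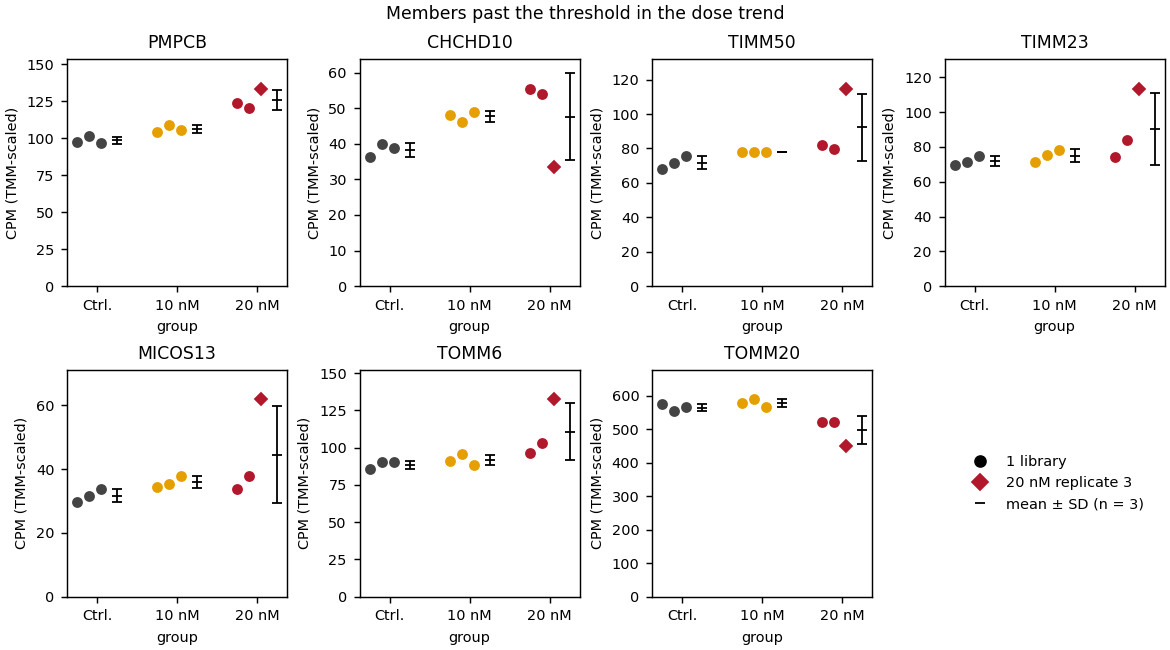
Each panel plots CPM (TMM-scaled, not corrected for surrogate variables) of a member past the threshold in the dose trend, with 1 point per library, a diamond for 20 nM replicate 3, and the mean ± SD (n = 3) beside each group. PMPCB steps up from Ctrl. to 10 nM to 20 nM with the diamond close to the other points, whereas in CHCHD10 the diamond, at 33.47 CPM, lies below the controls.

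Leaving out 20 nM replicate 3, with the number of surrogate variables held, gave 1 member called at 10 nM, 6 at 20 nM, 1 from 10 to 20 nM and 5 in the dose trend. Of all genes 1.07%, 17.8%, 3.09% and 18.5% were called in these comparisons. At 20 nM the 6 were CHCHD10, PMPCB, TIMM50, TOMM6 and TIMM17A, which were higher, and TIMM23B, which was lower. The 5 of the dose trend were CHCHD10, PMPCB, TIMM50 and TOMM6, higher, and TIMM23B, lower. MICOS13, TIMM23 and TOMM20 were no longer called. The median log2 fold change of the members in the dose trend was then 0.061, against -0.001 over all genes, and 29 of 41 were positive. Other libraries moved these counts too. In the dose trend 4 members were called without Ctrl. replicate 1, 4 without Ctrl. replicate 3, 3 without 20 nM replicate 2 and 20 without 20 nM replicate 1, and the last of these fits called 4 members at 20 nM. Of all genes 14.2%, 13.1%, 11.2% and 26.6% were called in these trends, and 8.84% at 20 nM in the last fit.

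**Figure D4:**
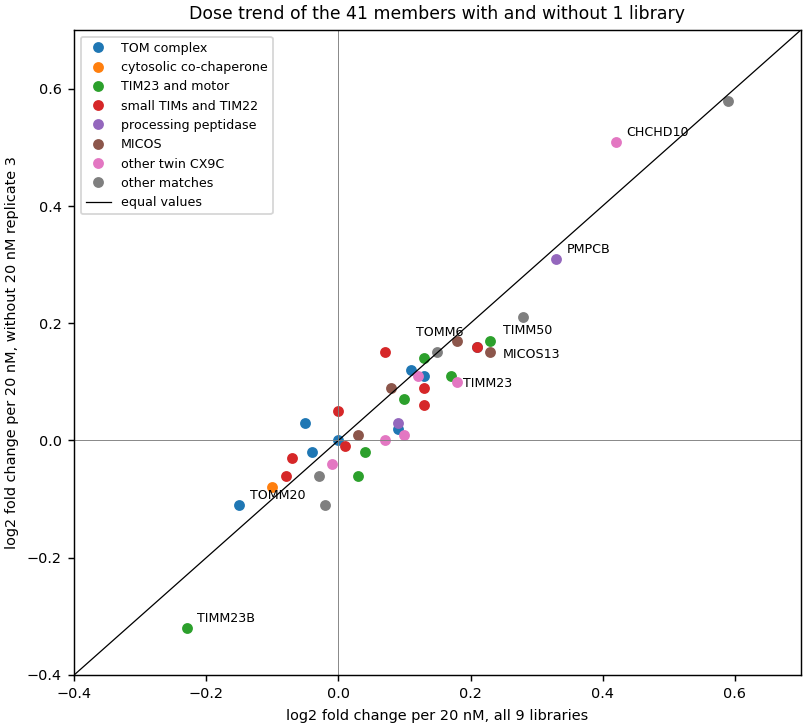
Each point is a member, with the log2 fold change per 20 nM from all 9 libraries on the horizontal axis and without 20 nM replicate 3 on the vertical axis; the line marks equal values, and names mark members called in either fit. PMPCB lies near the line (0.33 and 0.31), CHCHD10 above it (0.42 and 0.51), and MICOS13 below it (0.23 and 0.15).

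Whether related members responded unequally was tested on 7 pairs, as the log2 ratio of their CPM in each library, comparing 6 mimic libraries with 3 controls (two-sided exact permutation test over 84 splits, for which the smallest p is 0.0119, adjusted over the 7 pairs). None passed. After this adjustment a single pair at the smallest p would still miss 0.05, unless other pairs were at or near it too. The adjusted test therefore could not call 1 pair alone, and no conclusion is drawn from its result. Before adjustment the exact permutation p of the pairs ran from 0.226 to 0.631. The ratio of CHCHD2 to CHCHD10 was 3.23, 3.08 and 3.17 in Ctrl. and 2.79, 2.91 and 2.97 at 10 nM. At 20 nM it was 2.58, 2.68 and 3.56. In 5 of 6 mimic libraries it was below every control, and 20 nM replicate 3 was above them. The mean difference was -0.24 (SE 0.15, exact permutation p = 0.286, adjusted p = 0.562). Without 20 nM replicate 3 it was -0.37 (exact permutation over 56 splits, p = 0.0357, adjusted p = 0.25). With 56 splits the smallest p is larger, so 1 pair alone could not pass after adjustment there either.

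The ratio of PMPCA to PMPCB was 0.19, 0.08 and 0.15 in Ctrl., 0.14, 0.02 and 0.09 at 10 nM and -0.15, -0.13 and 0.19 at 20 nM, a difference of -0.11 (SE 0.066, exact permutation p = 0.226, adjusted p = 0.562). Here 20 nM replicate 3 lay level with the highest control, while the other 20 nM libraries lay below the controls. Without it the difference was -0.15 (exact permutation p = 0.125). For TIMM10 to TIMM10B the difference was 0.22 (SE 0.14, exact permutation p = 0.321), and it was 0.09 without 20 nM replicate 3. For CHCHD3 to CHCHD6 it was -0.15 (SE 0.08, exact permutation p = 0.238), for TOMM40 to TOMM40L 0.11 (SE 0.12, p = 0.536), for TIMM17A to TIMM17B -0.06 (SE 0.072, p = 0.631) and for TIMM8A to TIMM8B -0.03 (SE 0.062, p = 0.595). Without 20 nM replicate 3 these 4 differences were -0.09, 0.02, 0.00 and -0.05. A p above the threshold does not show that the members of a pair respond alike.

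**Figure D5:**
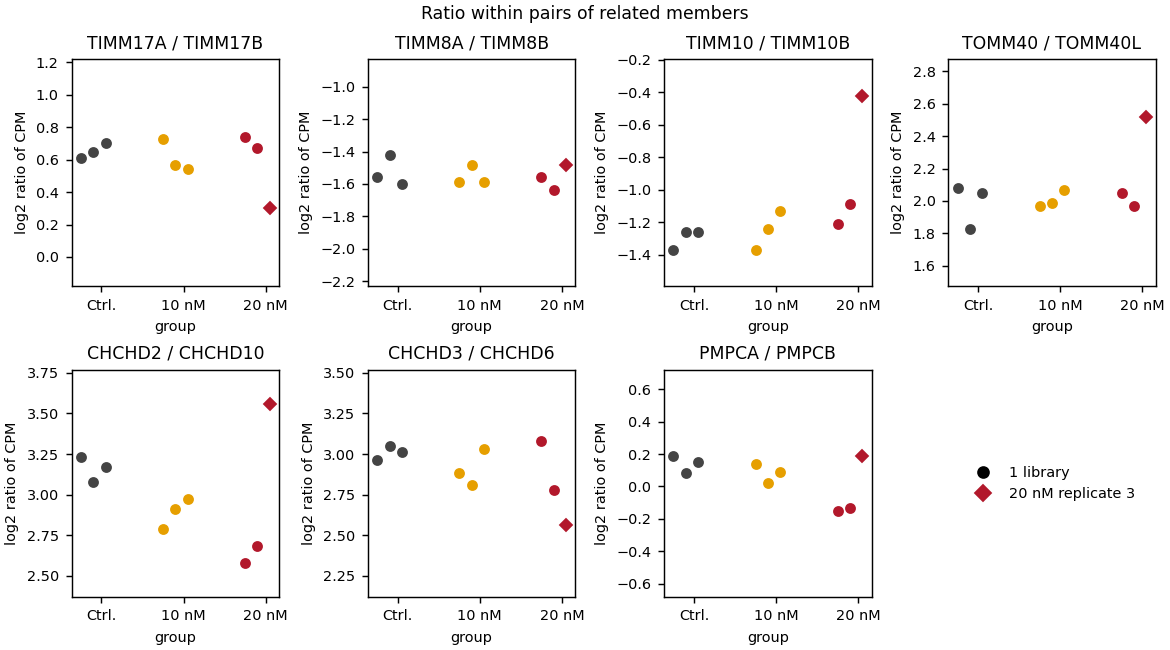
Each panel gives, for 1 pair of related members, the log2 ratio of CPM in each library by group, with a diamond for 20 nM replicate 3; the vertical axes differ in range. In the panels of CHCHD2 to CHCHD10 and PMPCA to PMPCB, 20 nM replicates 1 and 2 lie below the controls and the diamond lies at 3.56 and 0.19.

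The import pathway also holds genes whose names do not match the rule. A list of 34 such partners, all in the table, was described in the same fits. At 10 nM, 0 of 34 passed by edgeR or DESeq2, with 3 at an unadjusted p under 0.05 in edgeR (2084 of 14943 genes). At 20 nM 3 passed, DNLZ higher and MTX3 and ATAD1 lower, against 13.9% of all genes. In the dose trend 8 passed, 5 higher and 3 lower, against 17.5% of all genes. Their median log2 fold change was 0.041 in the dose trend, with 21 of 34 positive. At 20 nM, 8 partners passed with the replicate number as a block, 5 without 20 nM replicate 3, and 1 each without Ctrl. replicate 3 and without 20 nM replicate 2. These fits called 13.6%, 17.8%, 9.93% and 7.19% of all genes. In the dose trend 5 passed without Ctrl. replicate 1 (14.2% of all genes).

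The 3 partners that fell were ATAD1, MTX3 and APOOL, and each has a 7-mer seed match in its longest 3′ UTR. Of the 34 partners 8 have a 7-mer or 8-mer (23.5%), and the other 5 of these did not pass: GFER (log2 fold change 0.15), XPNPEP3 with an 8-mer (0.11), MTCH1 (0.00), HSPD1 (-0.04) and DNAJC15 (-0.05). MTX3, an outer membrane protein that works with the sorting machinery, was at 55.27, 46.17 and 50.31 CPM in Ctrl., 43.87, 37.83 and 41.26 CPM at 10 nM and 41.01, 33.54 and 33.71 CPM at 20 nM. Every mimic library was below every control (log2 fold change -0.40, SE 0.070, edgeR adjusted p = 0.00173). MTX3 is among the putative targets that the study picked on these libraries, so its direction is not independent evidence. The partner list was chosen with earlier results of these data known, so the directions of ATAD1 and APOOL are not independent either. A link between seed match and direction was not tested.

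ATAD1, which extracts mislocalized proteins from the outer membrane, was at 93.83, 100.4 and 99.73 CPM in Ctrl., 91.83, 99.37 and 92.41 CPM at 10 nM and 84.41, 85.2 and 67.91 CPM at 20 nM (-0.27, SE 0.046, edgeR adjusted p = 0.00138). APOOL (MIC27), a MICOS subunit that binds cardiolipin, was at 37.57, 42.71 and 42.45 CPM, 40.81, 41.04 and 38.92 CPM, and 32.89, 36.64 and 29.25 CPM in the same order (-0.29, SE 0.073, edgeR adjusted p = 0.0146). In both, 20 nM alone was separate from Ctrl.

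The 5 partners that rose have no 7-mer or 8-mer match in their longest 3′ UTR. DNLZ, a co-chaperone that keeps the motor chaperone mtHSP70 soluble, was at 16.04, 16.92 and 16.35 CPM in Ctrl., 18.45, 17.28 and 20.46 CPM at 10 nM and 19.04, 24.17 and 31.89 CPM at 20 nM (0.44, SE 0.087, edgeR adjusted p = 0.00335). AIFM1, which anchors CHCHD4 in the intermembrane space, was at 44.21, 43.41 and 45.99 CPM, 48.97, 44.25 and 47.72 CPM, and 50.89, 52.64 and 64.34 CPM (0.27, SE 0.051, edgeR adjusted p = 0.00281). AFG3L2, a subunit of the matrix-facing AAA protease of the inner membrane, was at 70.82, 72.12 and 72.5 CPM, 73.24, 72.06 and 79.66 CPM, and 83.66, 78.74 and 89.42 CPM (0.20, SE 0.050, edgeR adjusted p = 0.0135). In these 3 genes every 20 nM library was above every control. The call for AFG3L2 was lost without Ctrl. replicate 1 (edgeR adjusted p = 0.0542).

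HSPE1, the co-chaperonin of the matrix, was at 70.72, 78.71 and 75.71 CPM in Ctrl., 74.13, 85.29 and 75.66 CPM at 10 nM and 79.72, 93.15 and 114.5 CPM at 20 nM (0.22, SE 0.067, edgeR adjusted p = 0.0413). CLPP, a matrix protease, was at 65.95, 68.12 and 61.93 CPM, 72.75, 74.37 and 75.55 CPM, and 71.39, 72.94 and 106.5 CPM (0.20, SE 0.064, edgeR adjusted p = 0.0498). Both calls were lost without 20 nM replicate 3 (edgeR adjusted p = 0.084 for HSPE1 and 0.121 for CLPP), which had their highest level, while the other 6 partners remained past the threshold. Both were also lost without Ctrl. replicate 1 (edgeR adjusted p = 0.0735 and 0.0769), Ctrl. replicate 3 (0.112 and 0.223) or 20 nM replicate 2 (0.222 and 0.0537), and CLPP without 10 nM replicate 1 (0.0503) or 10 nM replicate 3 (0.0511). CLPP was also lost with the replicate number as a block (0.34, edgeR adjusted p = 0.0658), RLE scaling (0.0564), library totals (0.0658) and DESeq2 (DESeq2 adjusted p = 0.066), and HSPE1 with library totals (edgeR adjusted p = 0.0655). HSPD1, the chaperonin that works with HSPE1, did not pass (-0.04).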

How the data were processed

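Sample titles gave the groups and replicate numbers. The authors quantified reads with Salmon against GRCh38 (p13, as in the submitters' processing notes), summed them to genes by symbol, removed low genes with filterByExpr and deposited estimated counts, of which 88.8% are not whole. Where possible the RNA of a pair of wells was pooled. The deposited tables of log2 values corrected for surrogate variables and of the authors' fold changes and p-values were not used.

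Counts were rounded, scaled by TMM and tested with edgeR 4.0.16 (R 4.3.3) in the quasi-likelihood framework over all 9 libraries, with Benjamini-Hochberg adjustment over 14943 genes. A further filterByExpr removed 0 genes. Surrogate variables came from sva 3.50.0, applied to log2 CPM (prior count 2), and their number from num.sv (seed 1, held between 1 and 3), which gave 1 by group and 2 for the dose trend. For the dose trend this number varies between 1 and 3 with the seed and the order of libraries. The deposited order was kept, and a fit with 3 was not run. SE is the log2 fold change over the square root of F. CPM are not corrected for surrogate variables, so their ratio can differ from the fitted fold change. Pair ratios used a prior of 0.5 CPM. The fits were tested on simulated data.

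Same-numbered libraries deviated together between Ctrl. and 10 nM (r across genes = 0.177, 0.142 and 0.185 for numbers 1 to 3) and between Ctrl. and 20 nM (0.116, 0.107 and 0.116). The numbers were therefore taken to pair these samples. Sample titles share these numbers across groups and library names share a letter, but neither says what was shared. The main fits left this pairing out. The blocked value is given where it changes the call of a member.

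Every member past the threshold in any comparison, the most abundant member of a role group with none, both members of each pair and the partners past the threshold in the dose trend are described with each library's value, as are TIMM23B and CHCHD1, which were added after their values were seen. Members and lists were chosen with earlier results of these data known. Positions and 3′ UTRs (at least 50 bases) came from GENCODE 44 (GRCh38.p14), in which an identifier located 14105 genes of the table and a symbol 754, leaving 84 without a match. Of the members, 17 of 41 overlap another gene of the table. Overlaps, here and above, are of whole gene spans with introns, and overlap of exons was not examined. Counts of each pair of libraries within a group differed beyond sampling noise (chi-square per degree of freedom 4.78 to 47), so no library was treated as a duplicate of another. Python 3.11.15 with numpy 2.4.6, pandas 2.3.3 and matplotlib 3.10.9, and DESeq2 1.42.0 as an alternative, were also used.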

Additional observations from a re-analysis of the deposited data

How the results depend on the processing

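The main limits are 3 replicates a group, 20 nM replicate 3 and the surrogate variables, and depth limits the 4 members with a mean under 5 CPM (CHCHD7 and the TOMM40 pseudogenes). Members called at 10 nM, at 20 nM, from 10 to 20 nM and in the dose trend (1, 2, 1 and 7) became 0, 1, 0 and 1 with no surrogate variables. Of all genes 0.0335%, 6.38%, 0.448% and 8.27% were then called. With only genes of a mean of at least 5 CPM they were 1, 5, 2 and 18, and partners at 20 nM were 6. Of the genes kept, 1.11%, 21.1%, 4.22% and 33.2% were called. Fewer genes were tested there, and the surrogate variables were estimated anew on them. Unadjusted p under 0.05 in the dose trend was reached by 22 of the 37 members kept, against 15 of 41. DESeq2 gave 2 members for the step and 1 partner at 20 nM, 2 surrogate variables in every fit gave 5 partners at 20 nM, and no surrogate variables gave 3 partners in the dose trend. Of all genes DESeq2 called 2.91% for the step and 11.6% at 20 nM, and 2 surrogate variables called 13.1% at 20 nM. With the mimic as present or absent, 1 member and 0 partners were called in the dose trend, against 1.11% of all genes. With the replicate block, members called were 0, 4, 0 and 9, and partners at 20 nM were 8. For same-numbered libraries r was 0.174, 0.0288 and 0.176 between 10 and 20 nM. Across all groups, a library was closest to its own number in 17 of 18 cases. The block called 0.0201%, 13.6%, 0.83% and 16.4% of all genes. For PMPCB the step was then 0.25 (edgeR adjusted p = 0.108). The members' median for the step was 0.114 with no surrogate variables and 0.11 with the block, against 0.010. Leaving out single libraries gave 0 to 2 members at 10 nM, 2 to 13 at 20 nM, 0 to 4 for the step and 3 to 20 in the dose trend, where the highest values at 10 nM, 20 nM and for the step (2, 13 and 4) came without 20 nM replicate 3 and with the number of surrogate variables taken anew. That fit called 8.82%, 29.2% and 10% of all genes in these comparisons. The 20 in the dose trend came without 20 nM replicate 1, where 26.6% of all genes were called. For partners the ranges were 0 to 2, 1 to 11, 0 to 3 and 5 to 11. The causes were not tested. Some signs turned, in 1 case that of a called value (TOMM20, -0.15 in the dose trend). In the dose trend CHCHD2 was 0.02 (present or absent; genes of at least 5 CPM), 0.06 (no surrogate variables; block) and -0.04 to 0.05 with a library left out. TIMM8B was 0.03 (1 surrogate variable), 0.06 (present or absent) and -0.09 to 0.05, and TOMM40L 0.00 (DESeq2; RLE), -0.01 (library totals) and -0.04 to 0.05. With the mimic as present or absent TIMM10B was 0.01, TIMM8A 0.00, TOMM20 0.01 and TOMM34 0.03 (against -0.10). At 10 nM TOMM6 was -0.01 (2 surrogate variables) and -0.02 to 0.05, and TIMM23 was 0.00 (library totals) and -0.01 to 0.04. For the step CHCHD10 was 0.00 (no surrogate variables) and -0.02 (block), against 0.16, and MICOS13 -0.01 to 0.14. The ratio of TIMM8A to TIMM8B ran from -0.07 to 0.02 with a library left out.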
